A study of Mus musculus with 9 samples.

Results

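p53, the transcription factor encoded by Trp53, was followed together with its target genes in cells sorted from the mouse retina as retinal ganglion cells (RGCs), the neurons whose axons form the optic nerve. The genes were chosen by name. They were Trp53 and 9 genes used widely as readouts of p53 activity: Mdm2, Cdkn1a, Ccng1, Trp53inp1, Sesn1, Phlda3, Eda2r, Gdf15 and Zmat3. Of these 10 genes, 8 were among the 15228 genes listed in the deposited expression table, and Eda2r and Gdf15 were not analysed here. The study asked what a chelator of mobile zinc does to gene expression after injury of the optic nerve. Each of the 3 groups held 3 RNA-seq libraries of WT mice, for which the study names the strain C57BL/6J and an age of 6 to 8 weeks at surgery. Ctrl libraries came from intact retinas. ONC libraries came from retinas taken 3 d after optic nerve crush (ONC) with an intraocular injection of PBS, and TPEN libraries from retinas taken 3 d after the same crush with an intraocular injection of TPEN, a membrane-permeable zinc chelator. Ctrl eyes had neither crush nor injection, so that the effects of these cannot be told apart in comparisons with Ctrl. The sources used here do not state which mice or how many gave each library, and p-values measure only the spread between these libraries.

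Levels are given in RPKM, read numbers divided by the length of the exons and by the total of the library. Whole read numbers were worked out from the RPKM values, and the library totals ranged from 19946993 to 23109754 reads. Where no read was counted, the count allows up to 3 reads at this depth, or 0.130 to 0.150 RPM (reads scaled by the library total), and this covers counting error only. The sort took CD90.2+ cells that were negative for 3 other surface antigens, a leukocyte antigen among them. Thy1, the gene of CD90, had a mean of 5.74 RPKM over the 9 libraries. Of 13 listed RGC markers, 10 were tested, with Nefl, a neurofilament gene, at 240 RPKM, while Rbpms, Slc17a6 and Pou4f1 had means under 0.5 RPKM (0.439, 0.380 and 0.332). Gnat1, which encodes rod transducin, reached 10640 RPKM. The levels of p53 and its targets are therefore levels in RNA that held much photoreceptor transcript. In such bulk samples, fewer cells of a type and less RNA per cell cannot be told apart.

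p53 is held low in unstressed cells by Mdm2, a ubiquitin ligase that is itself induced by p53, and is stabilized as a protein by DNA damage and other stresses. Its targets halt the cell cycle, repair DNA, limit growth signals and oxidative stress, or start apoptosis. In the retina, p53 has been studied in the death of RGCs after injury. Because p53 is controlled largely at the protein level, the mRNA of Trp53 and the mRNAs of its targets are separate measurements.

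p53 binds DNA at pairs of a 10-base half-site. The half-site, known as the p53 half-site, consists of 3 purines, C, A or T, A or T, G and 3 pyrimidines, and reads the same on both strands. It was searched in the RefSeq promoters of build GRCm38.p6, each with 250 bases before and 50 bases after the start of the gene. The table held 11 promoters of 8 members, and none of Trp53inp1 or Zmat3. A half-site was present in 5 of these promoters, those of Trp53, Mdm2 and Ccng1, the upstream promoter of Cdkn1a and the second promoter of Sesn1. Of all 32851 promoters in the table, 8.36% held one. A full site, with 2 half-sites at most 13 bases apart, was present among the members in the upstream Cdkn1a promoter alone, and in 24 of the 32851 promoters (0.073%). There the half-sites began 73 and 51 bases before the start, with 12 bases between them. The 10 bases that follow the second half-site matched the half-site at 9 of 10 positions. The second start of Cdkn1a lies 2790 bases downstream, and its promoter held no half-site. A match is a description of the letters and not a bound site, and the known sites of a target can lie outside these windows, as in Mdm2, where p53 acts through the first intron. The 250 bases before the start are shown for Cdkn1a, the target with the largest log2 fold change among the members, for Phlda3, the other target that passed a test, and for Mdm2, which did not. They lie at chr17:29090729-29090978 on the plus strand (Cdkn1a), chr1:135765835-135766084 on the plus strand (Phlda3) and chr10:117710759-117711008 on the minus strand (Mdm2), and capitals mark p53 half-sites.
Cdkn1a: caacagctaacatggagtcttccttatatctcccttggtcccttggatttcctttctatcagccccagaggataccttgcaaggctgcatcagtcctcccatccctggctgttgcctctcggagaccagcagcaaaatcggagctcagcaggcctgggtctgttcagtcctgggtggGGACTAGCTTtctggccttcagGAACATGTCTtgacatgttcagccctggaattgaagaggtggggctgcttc
Phlda3: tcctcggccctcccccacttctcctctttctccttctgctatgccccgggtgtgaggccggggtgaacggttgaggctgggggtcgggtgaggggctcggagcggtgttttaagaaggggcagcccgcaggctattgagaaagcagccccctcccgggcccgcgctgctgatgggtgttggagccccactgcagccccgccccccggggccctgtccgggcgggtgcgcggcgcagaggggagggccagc
Mdm2: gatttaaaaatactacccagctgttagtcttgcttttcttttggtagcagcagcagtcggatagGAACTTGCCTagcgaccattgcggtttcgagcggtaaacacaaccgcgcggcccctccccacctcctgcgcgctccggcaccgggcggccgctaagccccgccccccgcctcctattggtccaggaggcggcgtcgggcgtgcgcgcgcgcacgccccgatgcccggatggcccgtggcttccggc

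The members spanned a wide range of levels, and exons of none of them overlapped another listed gene. Mdm2 (19.1 RPKM over the 9 libraries), Ccng1 (14.6) and Sesn1 (10.8) were the most abundant and ranked 2461, 3136 and 4076 of 15228 genes. Trp53 (2.55 RPKM) and Trp53inp1 (1.93 RPKM) followed. Phlda3 (0.774 RPKM), Zmat3 (0.469 RPKM) and Cdkn1a (0.393 RPKM) were among the genes with few reads. Differences between groups were tested with limma on log2(RPKM + 0.1). The test took in 13566 genes whose mean reached 0.5 RPKM, with Benjamini-Hochberg adjustment over all of them, and a gene passed with an adjusted p-value under 0.05. Of the 8 members, 6 entered this test. Cdkn1a and Zmat3 did not, and their values come from the same fit without the filter, over 15228 genes. Phlda3 entered with a Ctrl mean under 0.5 RPKM, through its level in the injured groups.

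**Figure D1:**
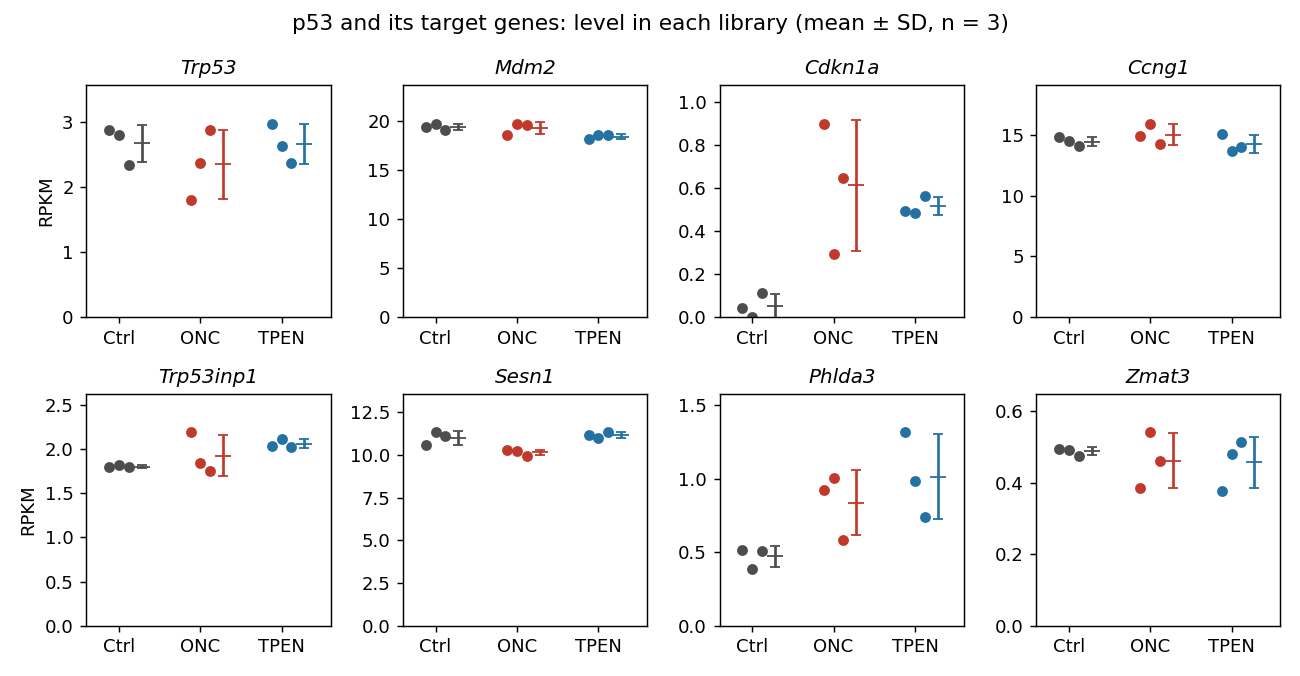
Level of each of the 8 members (RPKM, axis from 0) in the 3 libraries of Ctrl, ONC and TPEN, with the mean ± SD beside the points (the Ctrl bar of Cdkn1a is cut at 0). Cdkn1a is near 0 in Ctrl and 0.294 to 0.900 RPKM in ONC, and Phlda3 is higher in both injured groups than in every Ctrl library. The other genes passed in no comparison, and Trp53 spreads from 1.80 to 2.86 RPKM within ONC.

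The gene of p53 itself did not pass the test in any comparison. Trp53 lay at 2.87, 2.79 and 2.34 RPKM in Ctrl, at 1.80, 2.37 and 2.86 in ONC and at 2.97, 2.63 and 2.37 in TPEN. The groups overlapped in all comparisons, and ONC was the most variable group, with 0.534 RPKM SD. The log2 fold change was -0.20 in ONC/Ctrl (SE 0.16, 95% interval -0.56 to 0.17, adjusted p = 0.452), 0.19 in TPEN/ONC (-0.17 to 0.56, adjusted p = 0.547) and -0.01 in TPEN/Ctrl (-0.37 to 0.36, adjusted p = 0.987). These intervals allow a change of Trp53 mRNA in ONC/Ctrl between 0.677-fold and 1.12-fold.

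Mdm2, the ubiquitin ligase that restrains p53 and serves as its feedback target, had the tightest estimate of the members. Its levels were 19.4, 19.7 and 19.1 RPKM in Ctrl, 18.6, 19.7 and 19.6 RPKM in ONC and 18.1, 18.6 and 18.6 RPKM in TPEN. The log2 fold change in ONC/Ctrl was -0.01 (SE 0.04, 95% interval -0.09 to 0.07, adjusted p = 0.902), which bounds the change between 0.938-fold and 1.05-fold. All TPEN libraries were below all Ctrl libraries, by a log2 fold change of -0.08 (95% interval -0.16 to 0.01) that did not pass (adjusted p = 0.233). In TPEN/ONC it was -0.07 (adjusted p = 0.341).

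Cdkn1a encodes p21, the inhibitor of cyclin-dependent kinases that carries out much of the cell cycle arrest by p53. It had 2, 0 and 5 reads in the Ctrl libraries, or 0.0401, 0 and 0.112 RPKM. In ONC it had 46, 15 and 33 reads (0.900, 0.294 and 0.646 RPKM), and in TPEN 22, 24 and 25 reads (0.495, 0.486 and 0.564 RPKM). Every injured library was above every Ctrl library, while the TPEN libraries lay inside the range of ONC. Cdkn1a rose in ONC/Ctrl by 2.21 on the log2(RPKM + 0.1) scale (SE 0.35, 95% interval 1.42 to 3.00, adjusted p = 0.00159) and in TPEN/Ctrl by 2.09 (SE 0.35, adjusted p = 0.00349). The added 0.1 RPKM shrinks these values. The ratio of summed reads, scaled by library totals, was 12.8 (exact 95% counting interval 5.97 to 32.7) in ONC/Ctrl and 10.7 (4.94 to 27.6) in TPEN/Ctrl. It rests on 7 reads in Ctrl. A counting interval covers counting error only and leaves out the spread between libraries. With no filter, 12.6% of 15228 genes passed as higher in ONC/Ctrl and 8.92% in TPEN/Ctrl. In a test against a change of 1.5-fold the call in TPEN/Ctrl was lost (adjusted p = 0.0636), and no omission of a single library lost either call.

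Between the injured groups Cdkn1a differed by less than the spread between libraries. The log2 fold change in TPEN/ONC was -0.11 with a 95% interval of -0.90 to 0.67 (adjusted p = 0.894). This interval spans 0.535-fold to 1.59-fold. The counting interval alone, on 71 and 94 reads, was 0.607 to 1.15. The value depended on single ONC libraries. It was 0.18 without ONC replicate 1, the library with 46 reads, and -0.49 without ONC replicate 2, the library with 15 reads. Relative to Trp53 in the same library, the log2 ratio of Cdkn1a was -4.26 ± 0.68 in Ctrl, -1.85 ± 0.87 in ONC and -2.16 ± 0.24 in TPEN (SD, n = 3). An exact permutation test over all 280 splits into 3 groups gave p = 0.0286 for this ratio, which was examined after the levels had been seen.

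Ccng1 encodes cyclin G1, a target that recruits phosphatase 2A to Mdm2. It lay at 14.8, 14.5 and 14.1 RPKM in Ctrl, 14.9, 15.9 and 14.2 RPKM in ONC and 15.1, 13.7 and 13.99 RPKM in TPEN, and all groups overlapped. The log2 fold change of Ccng1 was 0.06 in ONC/Ctrl (95% interval -0.07 to 0.18, adjusted p = 0.533), -0.08 in TPEN/ONC (adjusted p = 0.473) and -0.02 in TPEN/Ctrl (adjusted p = 0.867). The interval in ONC/Ctrl ends at 1.13-fold.

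Phlda3 encodes a pleckstrin homology protein that competes with Akt for membrane lipids and so limits survival signals. Its reads numbered 18, 14 and 16 in Ctrl (0.515, 0.389 and 0.511 RPKM), 33, 36 and 21 in ONC (0.921, 1.01 and 0.586 RPKM) and 41, 34 and 23 in TPEN (1.32, 0.982 and 0.740 RPKM). All libraries of both injured groups were above all of Ctrl, and the injured groups overlapped. Phlda3 rose in TPEN/Ctrl by 0.94 on the log2 scale, or 1.91-fold (SE 0.24, 95% interval 0.40 to 1.47, adjusted p = 0.0297). In ONC/Ctrl the log2 fold change was 0.69 (SE 0.24, 95% interval 0.16 to 1.23), which did not pass (adjusted p = 0.0748), and in TPEN/ONC it was 0.24 (-0.29 to 0.78, adjusted p = 0.611). Both of these comparisons with Ctrl turned on single libraries. Leave-one-out fits gave adjusted p-values of 0.0205 to 0.0966 in TPEN/Ctrl, and the call was lost without Ctrl replicate 1 (0.0596), 2 (0.0933) or 3 (0.0587) and without TPEN replicate 1 (0.0966) or 2 (0.0749). Without ONC replicate 3, the ONC library with the fewest Phlda3 reads, ONC/Ctrl passed with a log2 fold change of 0.90 (adjusted p = 0.0318).

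Sesn1 encodes sestrin 1, a stress-induced inhibitor of mTORC1 signalling. Its levels were 10.6, 11.3 and 11.1 RPKM in Ctrl, 10.3, 10.2 and 9.95 in ONC and 11.2, 10.98 and 11.3 in TPEN. All ONC libraries were below all libraries of both other groups, by a small margin. The log2 fold change was -0.12 in ONC/Ctrl (SE 0.04, 95% interval -0.21 to -0.02, adjusted p = 0.0986) and 0.14 in TPEN/ONC (SE 0.04, 0.04 to 0.23, adjusted p = 0.1001), and 0.02 in TPEN/Ctrl (adjusted p = 0.823). Neither ONC/Ctrl nor TPEN/ONC passed, though with quantile normalization ONC/Ctrl did (-0.15, adjusted p = 0.0342). ONC/Ctrl and TPEN/ONC share the ONC libraries and are not independent of each other.

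Trp53inp1 encodes a stress protein that acts in p53-dependent cell death and autophagy. It lay at 1.80, 1.82 and 1.79 RPKM in Ctrl, 2.19, 1.84 and 1.75 RPKM in ONC and 2.03, 2.12 and 2.03 RPKM in TPEN. All TPEN libraries were above all Ctrl libraries, and the log2 fold change of 0.18 in TPEN/Ctrl did not pass (95% interval -0.04 to 0.41, adjusted p = 0.279). It was 0.09 in ONC/Ctrl (adjusted p = 0.615) and 0.10 in TPEN/ONC (adjusted p = 0.626).

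Zmat3, which encodes an RNA-binding zinc finger protein, was close to the filter. It lay at 0.495, 0.492 and 0.475 RPKM in Ctrl, 0.384, 0.541 and 0.461 RPKM in ONC and 0.376, 0.480 and 0.513 RPKM in TPEN, on 86 to 142 reads per library, and all groups overlapped. In the fit without the filter the log2 fold changes were -0.07 in ONC/Ctrl (95% interval -0.43 to 0.28, adjusted p = 0.801), -0.01 in TPEN/ONC (adjusted p = 0.977) and -0.09 in TPEN/Ctrl (adjusted p = 0.782).

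**Figure D2:**
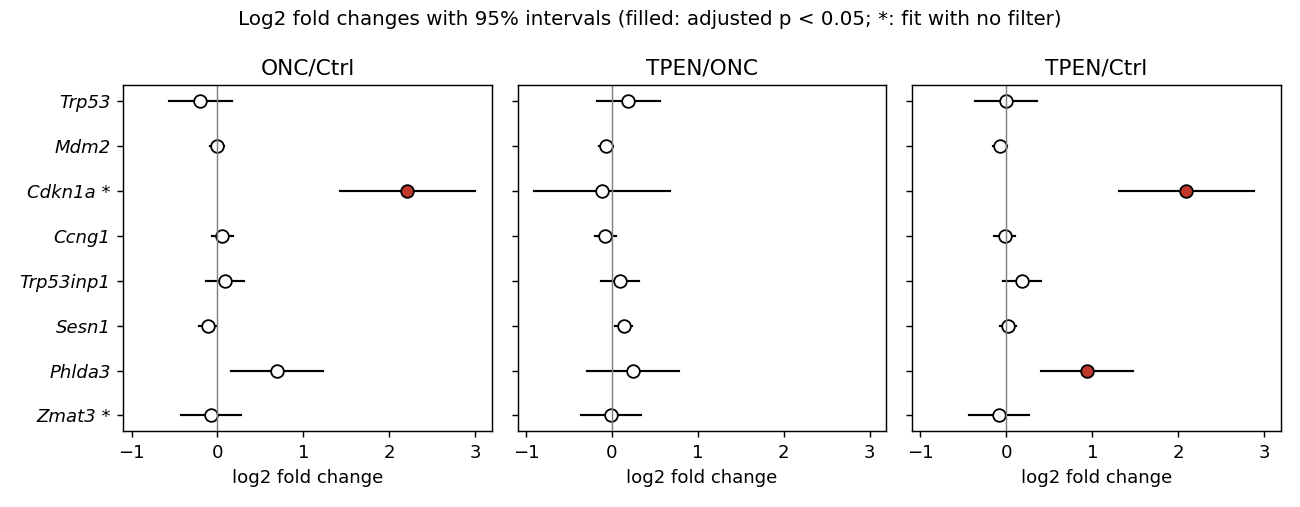
Log2 fold changes of the 8 members in ONC/Ctrl, TPEN/ONC and TPEN/Ctrl (points) with 95% intervals (lines), filled where the adjusted p-value was under 0.05. Cdkn1a and Zmat3 come from the fit without the filter. The filled points are Cdkn1a at 2.21 in ONC/Ctrl and Cdkn1a and Phlda3 at 2.09 and 0.94 in TPEN/Ctrl, and TPEN/ONC has none.

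Counted over the members, limma called 0 of the 6 tested genes in ONC/Ctrl, where 18.7% of all 13566 tested genes passed. With an unadjusted p-value under 0.05 there were 2 (Sesn1 and Phlda3), beside 31.6% of all tested genes, and limma with voom weights on the whole reads also called 0. In TPEN/ONC limma called 0 of 6, against 7.39% of all genes, with 1 at an unadjusted p-value under 0.05 (Sesn1, beside 22% of all genes) and 0 by voom. In TPEN/Ctrl it called 1 of 6 (Phlda3, higher), against 13.4% of all genes and 8.36% for genes higher. Phlda3 had entered the test only through its level in the injured groups, so this call is not independent of the filter. Without the filter Cdkn1a was added as higher in ONC/Ctrl and in TPEN/Ctrl, giving 1 and 2 of 8 members. In that fit 12.6% and 8.92% of all 15228 genes passed as higher in these comparisons. Groups did not overlap for 3 of the 8 members in ONC/Ctrl, 1 in TPEN/ONC and 4 in TPEN/Ctrl, where 36.2%, 28.1% and 31.3% of all 15228 genes did not overlap. The median log2 fold change of the 6 tested members was 0.02 in ONC/Ctrl, 0.12 in TPEN/ONC and 0.01 in TPEN/Ctrl, beside 0.02, -0.01 and 0.01 over all tested genes. With 3 libraries against 3, the exact permutation test of a single gene cannot give a two-sided p-value under 0.1. Over the 280 splits into 3 groups this exact test gave p = 0.025 for Sesn1, 0.0286 for Cdkn1a, 0.0393 for Phlda3 and 0.125 or more for the other 5 members, not adjusted for the 8 genes.

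Other genes of the pathway were taken from lists by role. Of 48 further p53 targets, 42 were listed and 36 tested. In ONC/Ctrl 5 of the 36 were upregulated and 0 downregulated (13.9%, against 18.7% of all genes). In TPEN/ONC there was 1 in each direction (Sulf2 higher, Gadd45a lower), where 562 of all 13566 tested genes passed as lower. In TPEN/Ctrl 4 passed as higher (Btg2, Ptp4a3, Siva1 and Sulf2) and 0 as lower, with 1 lower by voom. Upregulated genes alone made up 11.7%, 3.24% and 8.36% of all tested genes in ONC/Ctrl, TPEN/ONC and TPEN/Ctrl. The count of 5 became 3 without Ctrl replicate 1 or 2 or ONC replicate 3 and 8 without Ctrl replicate 3, and the 4 became 2 without Ctrl replicate 1 or 3 or any one TPEN library. In TPEN/ONC the higher target was lost without ONC replicate 1 or 2 or any one TPEN library, and the lower one without ONC replicate 1, while without Ctrl replicate 3 there were 2 lower. The median log2 fold change of the 36 targets was 0.06, -0.07 and 0.00 in the 3 comparisons. The upregulated targets in ONC/Ctrl were Btg2 and Gadd45a of the cell cycle list (2 of 6 tested), Aen of the apoptosis list (1 of 7), Xpc of the DNA repair list (1 of 8) and Ptp4a3 of the metabolism and growth list (1 of 15). Aen, Gadd45a, Siva1, Sulf2 and Xpc were named after their values had been seen. Exons of Sulf2 overlap another listed gene on the other strand.

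Ptp4a3, which encodes a membrane-anchored phosphatase, had the smallest adjusted p-value in ONC/Ctrl among the 36 further targets tested. It lay at 36.2, 34.4 and 37.1 RPKM in Ctrl, 57.5, 58.9 and 59.8 RPKM in ONC and 55.4, 56.8 and 52.6 RPKM in TPEN. Both injured groups were above every Ctrl library. It rose 1.64-fold in ONC/Ctrl (log2 fold change 0.71, SE 0.04, adjusted p = 1.97e-06) and 1.53-fold in TPEN/Ctrl (adjusted p = 9.41e-06), with a log2 fold change of -0.10 in TPEN/ONC (adjusted p = 0.189). The call in ONC/Ctrl was lost in the test against 1.5-fold (adjusted p = 0.221), as was the call in TPEN/Ctrl.

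Btg2, an antiproliferative target, lay at 14.3, 15.1 and 13.2 RPKM in Ctrl, 17.7, 18.9 and 18.7 RPKM in ONC and 16.3, 16.8 and 16.1 RPKM in TPEN. The 3 groups did not overlap, with TPEN between the others. Btg2 rose in ONC/Ctrl by 0.37 on the log2 scale (SE 0.05, adjusted p = 0.00095) and in TPEN/Ctrl by 0.21 (adjusted p = 0.0322). The TPEN/ONC value of -0.17 did not pass (adjusted p = 0.0978). Leave-one-out fits gave adjusted p-values of 0.0201 to 0.0995 in TPEN/Ctrl, with the call lost without Ctrl replicate 1 or 3 or any one TPEN library, and TPEN/ONC passed without Ctrl replicate 3 (adjusted p = 0.0489). Aen, an apoptosis-enhancing nuclease, rose in ONC/Ctrl by 0.39 (SE 0.06, adjusted p = 0.0011) and stood at -0.21 in TPEN/ONC (adjusted p = 0.0568, and 0.0184 with voom). Gadd45a is a growth arrest gene whose exons overlap another listed gene on the other strand. It rose in ONC/Ctrl by 0.17 (adjusted p = 0.0418) and fell by 0.26 in TPEN/ONC (adjusted p = 0.0145). Its leave-one-out adjusted p-values ran from 0.0278 to 0.132 in ONC/Ctrl, where the call was lost without Ctrl replicate 1 or 2, any one ONC library or TPEN replicate 1, and also with quantile normalization (adjusted p = 0.126) and with voom (adjusted p = 0.0839). In TPEN/ONC the Gadd45a call was lost without ONC replicate 1 (adjusted p = 0.062).

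The death effectors Bax and Bbc3 did not pass. Bax encodes a protein that permeabilizes mitochondria, and its exons overlap another listed gene on the same strand. It lay at 3.28, 3.05 and 3.82 RPKM in Ctrl and 4.28, 3.26 and 4.09 RPKM in ONC. The log2 fold change of Bax was 0.19 in ONC/Ctrl (95% interval -0.11 to 0.48, adjusted p = 0.375). In TPEN/ONC it was -0.18 (adjusted p = 0.483). Bbc3, which encodes the BH3-only protein Puma, lay at 0.336, 0.367 and 1.50 RPKM in Ctrl, 0.696, 0.820 and 0.738 RPKM in ONC and 0.424, 0.615 and 0.401 RPKM in TPEN. One Ctrl library, replicate 3, was above all other libraries. The log2 fold change in ONC/Ctrl was 0.30 (SE 0.43, adjusted p = 0.683), and without Ctrl replicate 3 it was 0.91 and passed (adjusted p = 0.015).

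Pmaip1 encodes Noxa, a BH3-only death effector that neutralizes Mcl1, and was below the filter. Its values come from the fit without it, and it was named after they had been seen. Pmaip1 had 2, 0 and 0 reads in Ctrl (0.0337, 0 and 0 RPKM), 29, 54 and 38 reads in ONC (0.477, 0.889 and 0.625 RPKM) and 8, 12 and 7 reads in TPEN (0.151, 0.204 and 0.133 RPKM). No groups overlapped. Pmaip1 rose in ONC/Ctrl by 2.76 on the log2(RPKM + 0.1) scale (SE 0.23, adjusted p = 2.25e-05), fell by 1.51 in TPEN/ONC (adjusted p = 0.00406) and rose in TPEN/Ctrl by 1.24 (adjusted p = 0.00578). The scaled reads in TPEN were 0.247 of those in ONC (exact 95% counting interval 0.157 to 0.378, 27 and 121 reads). For Cdkn1a the value was 0.838 (0.607 to 1.15). Both intervals leave out the spread between libraries, so they are no test of a difference between these genes. Of all 15228 genes, 4.52% passed as lower in TPEN/ONC. Over the omissions of single libraries the adjusted p-value was at most 0.0204 in TPEN/ONC and 0.0254 in TPEN/Ctrl. TPEN/ONC was lost in the test against 1.5-fold (adjusted p = 0.196), and TPEN/Ctrl with that test (0.397), with quantile normalization (0.0531) and with a pseudocount of 1 RPKM (0.136). The log2 ratio of Pmaip1 to Cdkn1a within a library was -0.38 ± 0.61 in Ctrl, 0.16 ± 1.08 in ONC and -1.23 ± 0.28 in TPEN (SD, n = 3). The ratio did not overlap between ONC and TPEN, with the smallest p-value that 3 against 3 can give in an exact two-sided permutation test (p = 0.1), and over the 280 splits into 3 groups p = 0.136.

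Among the regulators and relatives of p53, 15 of 20 genes were tested. Of these, 3 were upregulated in ONC/Ctrl, 0 in TPEN/ONC and 1 in TPEN/Ctrl, with 0 downregulated in any comparison. Of all tested genes, 11.7%, 3.24% and 8.36% passed as higher in these comparisons. By voom 5 were upregulated in ONC/Ctrl. The 3 were the acetyltransferase gene Crebbp and the ribosomal protein genes Rpl5 and Rpl11, whose products bind Mdm2. The log2 fold changes of these genes were 0.15, 0.15 and 0.14, and they were named after their values had been seen. Exons of Rpl5 overlap other listed genes on both strands. The 3 became 1 without Ctrl replicate 1 or 3 or any one ONC library, and the 1 in TPEN/Ctrl was lost without Ctrl replicate 1 or 2 or TPEN replicate 1. Mdm4, the relative of Mdm2 that also restrains p53, lay at 4.17, 4.13 and 4.14 RPKM in Ctrl, 3.66, 3.91 and 3.904 RPKM in ONC and 3.997, 4.19 and 4.06 RPKM in TPEN. All ONC libraries were below all others, and the log2 fold change of -0.11 in ONC/Ctrl did not pass (SE 0.06, adjusted p = 0.241). It was 0.09 in TPEN/ONC (adjusted p = 0.432).

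The partners of p21 are the cyclins and cyclin-dependent kinases that it binds. Of 9 such genes, 6 were tested. In ONC/Ctrl 2 were upregulated (Ccnd1 and Cdk4), where 11.7% of all tested genes passed as higher. In TPEN/ONC 1 was downregulated (Ccnd1), where 7.39% of all tested genes passed in either direction. In TPEN/Ctrl 0 passed, against 13.4% of all tested genes. There 3 had an unadjusted p-value under 0.05 (beside 27.2% of all genes), 2 passed by voom and 1 passed without Ctrl replicate 2. Cdk4 was named after its values had been seen. Ccnd1, the gene of cyclin D1, had levels of 1.93, 1.87 and 1.67 RPKM in Ctrl, 3.48, 3.31 and 3.08 RPKM in ONC and 2.58, 2.27 and 1.98 RPKM in TPEN. The groups did not overlap. Ccnd1 rose 1.76-fold in ONC/Ctrl (log2 fold change 0.82, SE 0.11, adjusted p = 0.000694) and fell by 0.52 on the log2 scale in TPEN/ONC (SE 0.11, adjusted p = 0.0218). The second call was lost without ONC replicate 1 or 2 or TPEN replicate 2 or 3, with leave-one-out adjusted p-values of 0.0201 to 0.0831. Both Ccnd1 calls were lost in the test against 1.5-fold. The Cdk4 call was lost without ONC replicate 2 (adjusted p = 0.057) and in the test against 1.5-fold. Exons of both genes overlap another listed gene on the other strand.

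**Figure D3:**
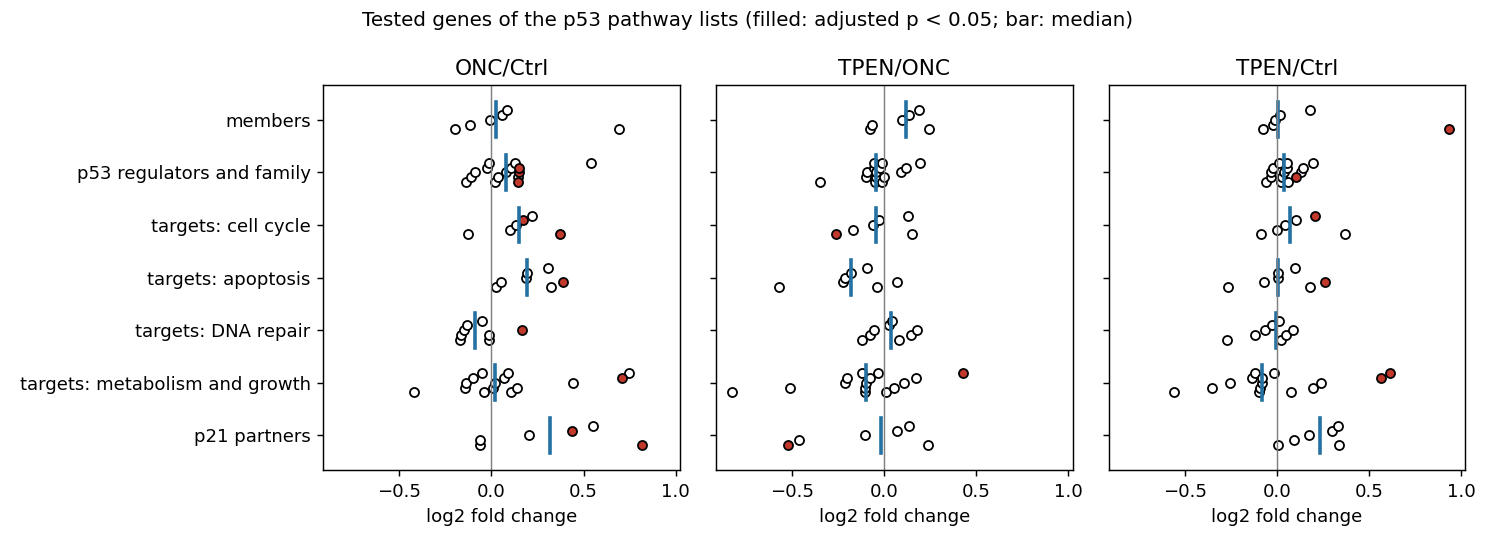
Log2 fold changes of the tested genes of each pathway list in ONC/Ctrl, TPEN/ONC and TPEN/Ctrl, filled where the adjusted p-value was under 0.05, with a bar at the median of the list. Medians in ONC/Ctrl run from -0.09 (DNA repair) to 0.32 (p21 partners), the filled points there are all above 0, and the largest filled values there are Ccnd1 (0.82) and Ptp4a3 (0.71).

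Markers of other cells moved with the injury. The summed level of 14 listed microglia and macrophage markers was 5.07 to 5.79 RPKM in Ctrl, 64.6 to 68.6 RPKM in ONC and 28.2 to 28.7 RPKM in TPEN. Of the 12 tested, 12 were upregulated in ONC/Ctrl and 12 in TPEN/Ctrl, and 7 were downregulated in TPEN/ONC, while Ptprc and Adgre1 stayed under a mean of 0.5 RPKM. No neutrophil or T cell marker of 7 each was listed. The ONC-to-TPEN order of the marker sum (no overlap, ONC higher) was also that of Pmaip1, Ccnd1 and Btg2. Other pathway genes had this order too, among them Gadd45a, Aen, Bbc3 and Crebbp, as had the Müller glia and RGC sums below. The opposite order (no overlap, TPEN higher) was that of other pathway genes, among them Mdm4 and Sulf2. Of the 8 members, Sesn1 alone did not overlap between ONC and TPEN, and it was higher in TPEN. Cdkn1a and Phlda3 overlapped between these groups. Of all 15228 genes, 28.1% did not overlap between ONC and TPEN, counting both directions. Markers of Müller glia summed to 556 to 576 RPKM in Ctrl, 640 to 651 in ONC and 502 to 512 in TPEN, and RGC markers to 374 to 384, 399 to 421 and 314 to 327. Single markers of both lists went in both directions. In ONC/Ctrl 3 of the 9 Müller glia markers were upregulated and 3 downregulated, with a median log2 fold change of -0.07. Of the 10 tested RGC markers, 4 were upregulated and 1 downregulated there. In TPEN/ONC each list had 2 upregulated and 5 downregulated. The 8 rod markers summed to 19061 to 19877 RPKM in Ctrl, 16764 to 16982 in ONC and 17980 to 18086 in TPEN, and the 7 cone markers to 131 to 137, 113 to 121 and 202 to 205 RPKM. Bipolar markers summed to 83.4 to 85.97 RPKM in Ctrl, 76.6 to 77.3 in ONC and 79.9 to 84.3 in TPEN. Endothelial and pericyte markers summed to 11.9 to 12.6 RPKM in Ctrl, 13.99 to 14.04 in ONC and 15.04 to 15.95 in TPEN, without overlap of the groups. Amacrine markers summed to 54.6 to 56.3 RPKM in Ctrl, 52.8 to 54.3 in ONC and 55.4 to 58.0 in TPEN, with ONC below every other library. Astrocyte markers summed to 21.7 to 22.3 RPKM in Ctrl, 22.5 to 23.5 in ONC and 21.6 to 23.3 in TPEN. Their ONC sums were above every Ctrl library and overlapped TPEN. The 1 listed fibroblast marker had 0.0738 to 0.16 RPKM over all 9 libraries. The sort had gated against a leukocyte antigen, and the part of these cells in the levels of p53 targets was not tested.

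**Figure D4:**
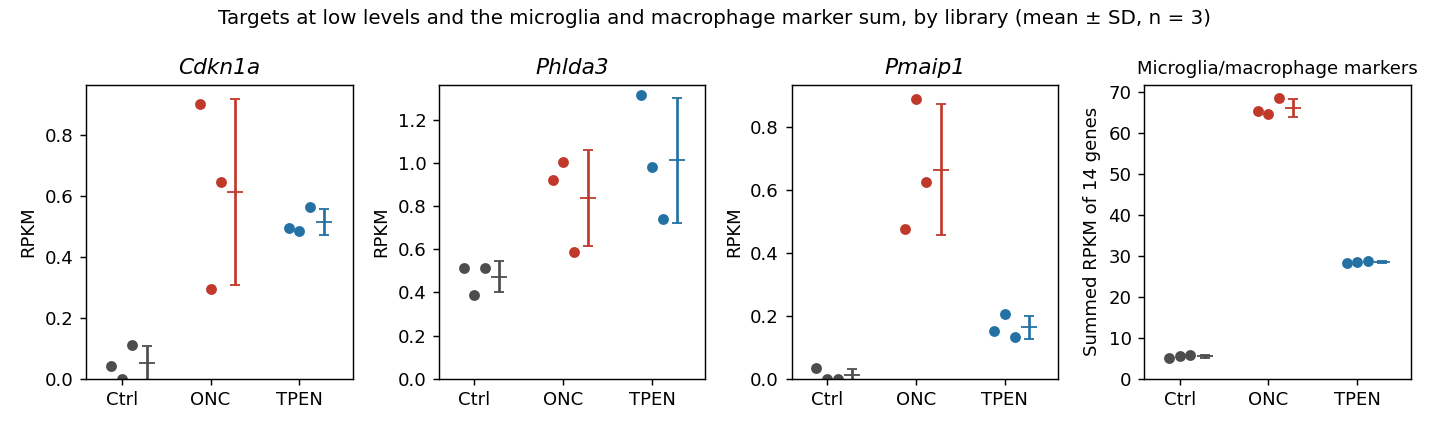
Levels of Cdkn1a, Phlda3 and Pmaip1 (RPKM) and the summed level of 14 microglia and macrophage markers (RPKM) in the 3 libraries of each group, with the mean ± SD beside the points (bars are cut at 0). In TPEN the marker sum (28.2 to 28.7 RPKM) and Pmaip1 (0.133 to 0.204 RPKM) lie between Ctrl and ONC, while Cdkn1a (0.486 to 0.564 RPKM) lies within the range of ONC.

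As a description of pattern, the genes most like Cdkn1a over the 9 libraries, searched among 12143 genes at a mean of 1 RPKM or more, were Atf7 (Pearson r = 0.98), Senp6 (0.97), Cdc42se1 (0.97), Gnl1 (0.97) and Gm28047 (0.96). Atf7 had group means of 2.51, 3.60 and 3.66 RPKM in Ctrl, ONC and TPEN, and like Cdkn1a was similar in both injured groups. Those most like Trp53 were Gabrr1 (0.93), Tada1 (0.91), Agtrap (0.91), Rogdi (0.89) and Gm26773 (0.88). The libraries share depth and cell mixture, and the highest of so many correlations over 9 points are high by selection.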

How the data were processed

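Total RNA of sorted cells was made into stranded libraries with unique molecular identifiers. The authors trimmed reads (Trimmomatic 0.36, per the submitters' processing notes), mapped them to GRCm38/mm10 with STAR and deposited RPKM values per gene. The counting program, annotation, strand setting and collapse of identifiers are not given in the sources used here. The table also holds 9 columns of the authors' own comparisons from edgeR (deposited log2 fold changes and deposited p-values with FDR), which were not used. Deposited RPKM times gene length moved in equal steps within each library, so that 100% of values came out as whole reads within 0.02.

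Groups were taken from the sample labels. limma 3.58.1 in R 4.3.3 (eBayes with a trend) was fitted to log2(RPKM + 0.1) of all 9 libraries with one coefficient per group, for genes whose mean reached 0.5 RPKM. Benjamini-Hochberg adjustment ran over all genes tested. Python 3.11.15 and scipy 1.17.1 gave exact two-sided permutation tests and counting intervals. Library totals were recovered from the same steps. The fits were tested on simulated data. Alternatives were quantile normalization, a pseudocount of 1 RPKM, a minimum mean of 1 RPKM or none, the 6 libraries of a comparison alone, a replicate block, a test against 1.5-fold, voom on whole reads, and leaving out each library.

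The members and lists were chosen with earlier results of these data known. Named were all members, other pathway genes that passed with at least 1.5-fold in ONC/Ctrl or TPEN/ONC, Bax, Bbc3, Mdm4 and Btg2 whatever their values, and the 5 genes most like Cdkn1a and Trp53. Genes outside this rule are marked in the text as named after their values had been seen. Cell type markers are given as sums.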

Additional observations from a re-analysis of the deposited data

How the results depend on the processing

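The RPKM table limits what can be said of Cdkn1a, Phlda3 and other genes with few reads, and the added 0.1 RPKM sets the size of their log2 fold changes. Another scaling moved the median of all genes by less than 0.1 on the log2 scale. Relative to 0 members higher and 0 lower in ONC/Ctrl, there was 1 higher without the filter and 0 to 1 when single libraries were left out, and 1 lower (Sesn1) with quantile normalization. Relative to 1 higher in TPEN/Ctrl there were 0 with quantile normalization, with a minimum of 1 RPKM and in the test against 1.5-fold, 2 without the filter, and 0 to 1 when single libraries were left out. Cdkn1a kept its direction in ONC/Ctrl, from 0.60 (pseudocount of 1 RPKM) to 3.85 (voom), with adjusted p-values of 0.000197 to 0.0198 over these settings. Alternatives that combine the missing filter with another choice were added after the data had been seen.

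Log2 fold changes that had not passed changed sign when single libraries were left out. They ran from -0.095 to 0.070 for Trp53 in TPEN/Ctrl, -0.024 to 0.019 for Mdm2 in ONC/Ctrl, -0.49 to 0.18 for Cdkn1a in TPEN/ONC, -0.059 to 0.0084 for Ccng1 in TPEN/Ctrl, -0.0060 to 0.15 for Trp53inp1 in ONC/Ctrl, -0.0091 to 0.040 for Sesn1 in TPEN/Ctrl, -0.17 to 0.029 for Zmat3 in ONC/Ctrl, -0.12 to 0.095 for Zmat3 in TPEN/ONC, -0.16 to 0.022 for Zmat3 in TPEN/Ctrl, -0.91 to 0.0043 for Plk3 in TPEN/ONC, -0.066 to 0.10 for Bax in TPEN/Ctrl, -0.024 to 0.91 for Bbc3 in ONC/Ctrl and -0.59 to 0.34 for Bbc3 in TPEN/Ctrl. With quantile normalization Zmat3 in TPEN/ONC became 0.018 and Bax in TPEN/Ctrl became -0.027. None of the members among them passed in any of these fits, and the cause was not tested.

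Replicate numbers recur in the 3 groups, and the labels do not say whether they pair the samples. Deviations of same-numbered libraries from their group means correlated between -0.06 and 0.03, beside -0.04 to 0.05 for libraries with different numbers. These values show no pairing, but with 3 libraries a group they cannot exclude one. With the number as a replicate block, the members passing (higher, lower) stayed at 0 and 0 for ONC/Ctrl, 0 and 0 for TPEN/ONC, and 1 and 0 for TPEN/Ctrl. Upregulated further targets in ONC/Ctrl numbered 3 rather than 5, without Gadd45a and Xpc, and upregulated regulators 1 rather than 3, without Crebbp and Rpl11, and 0 rather than 1 in TPEN/Ctrl, without Rpl5. The block changed no other call of a named gene. Further targets higher in ONC/Ctrl also numbered 3 with quantile normalization and 0 in the test against 1.5-fold, and regulators 1 and 0 in these and 5 with voom.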

Other observations

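Plk3, a stress-responsive kinase gene of the list of cell cycle targets, also passed in the fit without the filter and was named after its values had been seen. It had 5, 7 and 4 reads in Ctrl, 27, 32 and 19 in ONC and 14, 38 and 6 in TPEN. It rose in ONC/Ctrl by 1.47 (SE 0.39, adjusted p = 0.0243). Single omissions raised its adjusted p-value to between 0.0682 and 0.0819 without Ctrl replicate 1 or 3 or ONC replicate 1 or 2, and the call was also lost with quantile normalization (adjusted p = 0.0854), a pseudocount of 1 RPKM (0.0532) and the test against 1.5-fold (0.551). Its TPEN/ONC value of -0.43 did not pass. Without TPEN replicate 3, the library with 6 reads, TPEN/Ctrl passed with 1.47 (adjusted p = 0.0199).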
